A study of Mus musculus with 10 samples.

Results

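The arrays described here are the 3 wild-type arrays of a series of 10, and they give an expression profile of mouse splenic B cells. The cells were sorted from spleen by FACS as positive for B220 and CD22, and their total RNA was hybridised to Affymetrix Mouse Gene 1.0 ST arrays. The wild-type mice carry the strain label CBAxC57BL/6J and no transgene. The other 7 arrays came from B cells of the same sort and strain label, 3 from Sca1-Bcl6(floxed) mice and 4 from Sca1-Bcl6(delta) mice, in which mb1-Cre had acted on the floxed transgene; they serve here only to show single genes as values. The members were chosen by the title of the sample, not by any measured value, and no comparison between groups was made, so no test was run. The labels give no age, sex or date and do not state that each array stands for a separate animal, so the spread among the 3 arrays may be technical in part.

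Exactly 1 gene symbol was assigned to 21640 of the 34760 probe sets, and these represent 19937 genes. Levels are log2 of the deposited RMA intensity (robust multi-array average), and ± marks the standard deviation (SD) over the 3 arrays (n = 3). The median intensity was 143.5 in wild-type 1, 145.4 in wild-type 2 and 145.3 in wild-type 3. Pearson's r across genes lay between 0.9939 and 0.9949 for the 3 pairs of arrays, as a description, since genes are not independent replicates. No array stood apart from the other 2 by these measures. Probe sets differ in how they respond to the same amount of RNA, so an order of genes by level is an order of signal and not of transcript number. Xist, which coats the inactive X in females, had a level of 12.91 ± 0.04, and the Y-linked genes Kdm5d, Uty and Eif2s3y had mean levels of 5.30, 4.70 and 3.82, so all 3 arrays had a female pattern.

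A mature B cell carries a membrane immunoglobulin that signals through the CD79a and CD79b chains, and coreceptors such as CD22 and the complement receptor CD21 tune that signal. In the spleen, most B cells are follicular cells that recirculate and present antigen to T cells, and a smaller marginal zone population faces the blood. Both kinds are long-lived resting cells that depend on the BAFF receptor and on a tonic signal from the B cell receptor.

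All 6 B cell markers lay in the strongest 10% of genes. Cd79b, a signalling chain of the B cell receptor, had levels of 13.86, 13.80 and 13.84 in wild-type 1, 2 and 3 and ranked 7 of 19937 genes. Cd79a, its partner chain, had levels of 13.39, 13.36 and 13.29. Ms4a1, which encodes CD20, had levels of 13.30, 13.31 and 13.29. These 3 genes differed among the arrays by at most 0.10. Cd22, an inhibitory lectin on which the cells were sorted and which is therefore no finding, had levels of 12.97, 12.91 and 12.88. Cr2, the gene of CD21 and CD35, had levels of 12.84, 12.58 and 13.03, and this was the widest spread of the 6 (0.45). Fcer2a, the low-affinity IgE receptor CD23 of follicular cells, had levels of 12.62, 12.44 and 12.42. No marker went against the label of the sort in any array.

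**Figure D1:**
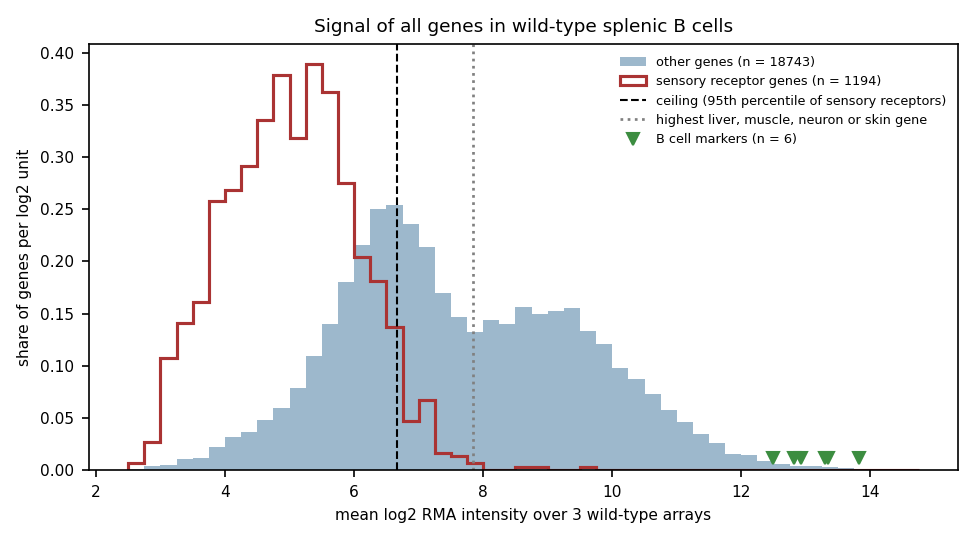
Mean log2 RMA intensity of all genes over the 3 wild-type arrays (x axis), as the share of genes per log2 unit (y axis), for 1194 olfactory and vomeronasal receptor genes (red line) and all other genes (blue bars). The dashed line is the background ceiling at 6.66, the dotted line the highest member of the liver, muscle, neuron and skin list at 7.85, and the green triangles are the 6 B cell markers, all above 12.

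RMA values carry no detection call, so a background ceiling was taken from 1194 olfactory and vomeronasal receptor genes, which serve chemical sensing in the nose. Their median level was 5.02, and the 95th percentile, used as the ceiling, was 6.66 (an intensity of 101). Above it lay 12336 genes, 61.9% of all, and the median of all genes was 7.21. The plot of all genes has a low hump around the ceiling and a shoulder to the right of it. Among the kinds of transcript that RefSeq names, 63.1% of 18564 protein-coding genes, 45.2% of 726 long non-coding RNA genes, 35.7% of 297 microRNA genes and 92.6% of 54 small nucleolar RNA genes lay above the ceiling. The ceiling is lenient. Of 18 genes that mark liver, muscle, neurons and skin, 8 (44.4%) lay above it, up to Mbp, a myelin protein, at 7.85 ± 0.07. Counts are therefore also given against 7.85, a stricter line chosen after the values were seen, above which 8048 genes (40.4%) lay. Each list count that follows stands beside these shares of all genes, 61.9% above 6.66 and 40.4% above 7.85.

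The strongest signals included small RNAs, actin, ribosomal proteins and antigen presentation genes. Rn7sk, a small nuclear RNA that restrains transcript elongation, led all genes with levels of 14.60, 14.59 and 14.61. Actb, cytoplasmic actin, followed with levels of 14.25, 14.22 and 14.21. Both were nearly flat across the arrays. Rps6 and Rpl9, proteins of the small and large ribosomal subunit, had mean levels of 14.08 ± 0.02 and 14.14 ± 0.10, and Eef1a1, the elongation factor that brings transfer RNA to the ribosome, had 14.05 ± 0.09. Among the 30 strongest genes there were also Tpt1, Serinc3, Ly6e, Srgn, Tmsb4x, the RNase P RNA Rpph1, the small nucleolar RNA Snord57, and the mitochondrially encoded ND3 and COX2.

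B cell genes stood among them. H2-Aa, the alpha chain of the class II molecule I-A, ranked 13 with levels of 13.74, 13.63 and 13.60. Cd74, the invariant chain that guides class II molecules, ranked 14 with levels of 13.65, 13.68 and 13.58. B2m, the light chain of class I molecules, ranked 15 with levels of 13.76, 13.54 and 13.45. H2-Aa and B2m were highest in wild-type 1 and lowest in wild-type 3, and so was H2-Ab1, the beta chain of I-A, which ranked 21 with levels of 13.71, 13.42 and 13.36. Of the 100 strongest genes, 22 encode cytoplasmic ribosomal proteins, of 66 such genes measured. A further 4 are class II genes of the MHC (H2-Aa, H2-Ab1, H2-Eb1 and H2-Ob), and 7 are small nucleolar or other small RNAs. Ribosomal genes have processed copies in the genome that share their sequence: Rpl9 alone had 8 probe sets with mean levels from 8.93 to 14.14, so their signal cannot be assigned to 1 locus. Rps18 had a spread of 0.83 among the arrays, with levels of 13.21, 13.50 and 14.03, but its next probe set had 12.71, 12.64 and 12.91.

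**Figure D2:**
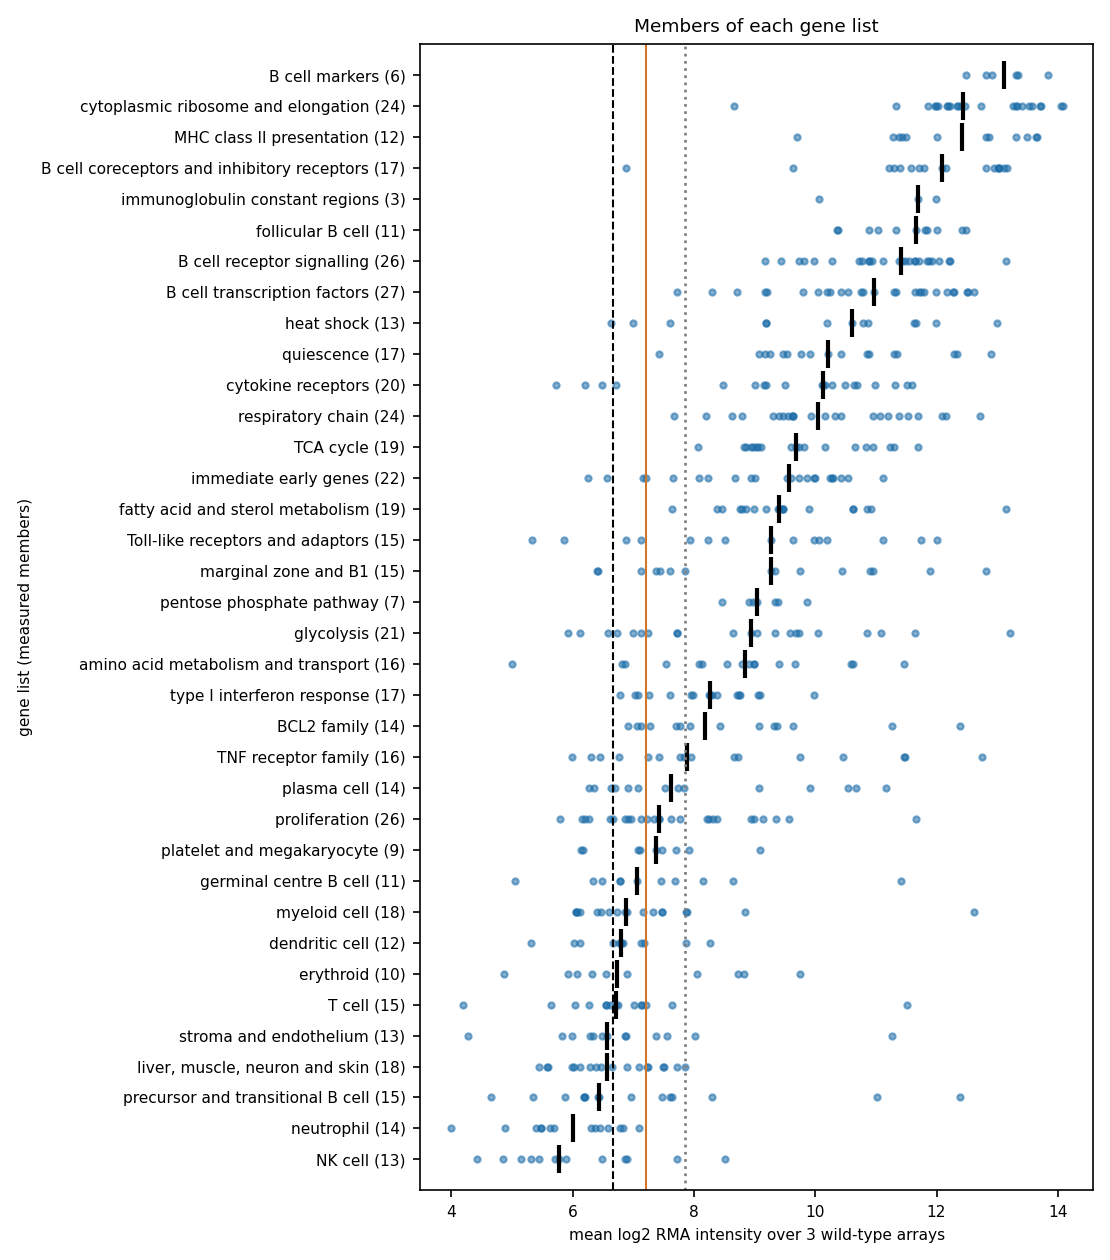
Mean log2 RMA intensity over the 3 wild-type arrays (x axis) of each measured member (blue point) of 36 gene lists (y axis, with the number measured), ordered by the list's median (black bar). The dashed line is the ceiling at 6.66, the dotted line 7.85 and the orange line the median of all genes at 7.21; the B cell marker list lies at the top and the neutrophil and NK cell lists at the bottom.

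The transcription factors that set B cell identity all gave signal. All 27 measured members lay above the ceiling and 26 above 7.85, against 61.9% and 40.4% of all genes, with a median of 10.97. Pax5, which commits precursors to the B lineage, had levels of 12.70, 12.68 and 12.49. Ikzf3, the Ikaros family member Aiolos, had levels of 12.58, 12.52 and 12.46, and Spib, an ETS factor of B cells, had 12.49, 12.64 and 12.36. Ebf1, which acts with Pax5, had levels of 12.21, 12.39 and 12.21. None of these 4 differed among the arrays by more than 0.28. At the low end stood Lef1, a Wnt pathway factor of precursors, with 7.72 ± 0.10, and Myb, a factor of progenitors, with levels of 8.26, 8.77 and 7.86. Myb had the widest spread of the list.

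Bcl6, the repressor that directs the germinal centre reaction and the gene carried by the transgene of the other groups, is here the endogenous gene alone. Its levels were 10.48 in wild-type 1, 9.87 in wild-type 2 and 9.80 in wild-type 3, a mean of 10.05 ± 0.38. Wild-type 1 was the high array, by 0.61 over the next. Any comparison with these 3 arrays as the reference takes up that spread. Ly6a, whose vector carries the transgene, was not analysed here.

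Surface receptors that modulate the B cell receptor had a median level of 12.09, and all 17 measured lay above the ceiling. Cd37 and Cd53, tetraspanins that organise membrane proteins, had levels of 13.16 ± 0.07 and 13.12 ± 0.09. Fcmr, the IgM Fc receptor, had 13.04 ± 0.04. Ptprc, the gene of CD45 whose B220 form was used in the sort, had 13.02 ± 0.09. The low members were Pirb, an inhibitory receptor for class I molecules, with levels of 9.83, 9.84 and 9.24, and Lair1, a collagen receptor, with 6.61, 6.67 and 7.34. Lair1 crossed the ceiling only in wild-type 2 and wild-type 3.

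The signalling chain below the receptor was complete among the measured genes, with all 26 above both lines and a median of 11.41. Bank1, a scaffold that links the receptor to calcium release, had levels of 13.19, 13.16 and 13.10. Prkcb, the protein kinase that activates NF-kappaB in B cells, had 12.21 ± 0.02, and Rasgrp3, which activates Ras, had 12.21 ± 0.05. Btk, the kinase mutated in X-linked agammaglobulinaemia, had levels of 10.94, 10.97 and 10.91, and Blnk, its adaptor, had 11.87, 11.81 and 11.87. These were among the steadiest values of the profile: the median spread over the list was 0.10, against 0.16 for all genes above the ceiling. Syk, the kinase that docks on CD79a and CD79b, had the widest spread (0.34), with levels of 11.87, 12.05 and 11.70. Fyn and Stim1, a kinase and a calcium sensor, were the lowest members at 9.44 ± 0.03 and 9.17 ± 0.06.

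Genes of recirculating follicular cells were all high, with 11 of 11 in the strongest 10% of genes and a median of 11.65. Itga4, an integrin chain for homing, had levels of 12.27, 12.56 and 12.41. Cd55, which protects from complement, had 12.01 ± 0.15. The integrin genes Itgal and Itgb2 were the lowest members, at 10.38 ± 0.07 and 10.35 ± 0.08. Cxcr4, a chemokine receptor, had levels of 10.66, 11.39 and 10.63, high in wild-type 2 by 0.73.

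Marginal zone and B1 genes gave 13 of 15 members above the ceiling and 9 above 7.85, with a median of 9.27. Besides Cr2, Notch2, the receptor on which marginal zone cells depend, had levels of 11.85, 11.91 and 11.91, and Plac8 had 10.95 ± 0.07. Cd1d1, a lipid-presenting molecule, had levels of 8.98, 9.31 and 9.51, and Cd9, a tetraspanin of these cells, had 7.51, 7.86 and 8.19. Myof, a membrane repair protein, had 8.53, 9.37 and 10.09, the widest spread of the list. Wild-type 3 was the highest array in 12 of the 15 members and wild-type 1 in 1, against 45.4% and 23.2% of all genes above the ceiling. Il5ra, a receptor typical of B1 cells but not in this list, was lowest in wild-type 3, with 9.73, 9.67 and 8.09. Itgam and Ctla4 were the lowest members, at 6.40 and 6.42. Across a bulk sample, more cells of a kind and more RNA per cell cannot be told apart.

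Genes of precursors had a median below the ceiling, 6.44. Of 15, 7 lay above the ceiling (46.7%, against 61.9% of all genes) and 3 above 7.85, which were Cd24a (12.39 ± 0.11), a surface protein of immature cells that mature cells keep, Vpreb3 (11.02 ± 0.37) and Cd93. Rag1 and Rag2, the recombinase genes, had mean levels of 6.19 and 4.66, and Dntt, the enzyme that adds bases at joins, had 5.34, all below the ceiling. Cd93, a marker of transitional cells, had levels of 8.27, 8.88 and 7.77. Vpreb3, found in immature B cells, had 10.96, 11.41 and 10.68. Both were highest in wild-type 2 and lowest in wild-type 3, and Myb had the same order.

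Germinal centre genes gave 8 of 11 over the ceiling (72.7%, against 61.9% of all genes) and 3 over 7.85, with a median of 7.06, near that of all genes. Without wild-type 1, 5 lay over the ceiling. Gna13, a G protein used by many cells, had 11.41 ± 0.07, Neil1, a DNA repair enzyme, had 8.64 ± 0.12 and Basp1 had 8.15 ± 0.06. Rgs13, a regulator of chemokine signals in germinal centre cells, had levels of 8.11, 6.58 and 5.68, so that only wild-type 1 exceeded the ceiling. Mybl1, a Myb relative of these cells, had levels of 7.93, 6.66 and 6.60. Wild-type 1 was the highest array in 9 of the 11 members and wild-type 3 in 0, against 23.2% and 45.4% of all genes above the ceiling. The lowest members were Nuggc at 6.34 and Mme at 5.05. Wild-type 1, high for these genes, was also the high array for Bcl6.

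Plasma cell genes gave 11 of 14 above the ceiling (78.6%) and 5 above 7.85, against 61.9% and 40.4% of all genes. Mzb1, an endoplasmic reticulum protein, had levels of 11.23, 10.91 and 11.34, Xbp1, a factor of the secretory programme, had 10.67 ± 0.03, and Irf4 had 10.54 ± 0.07. The first and last of these are also expressed by B cells that do not secrete. Prdm1, the factor that drives plasma cell differentiation, had levels of 7.05, 6.96 and 7.22, and Sdc1, the gene of CD138, had 7.95, 7.89 and 7.68. Jchain, the joining chain of secreted IgM and IgA, had 7.17, 6.35 and 6.58, above the ceiling in wild-type 1 alone. Tnfrsf17 and Cd28 were the lowest members, at 6.35 and 6.28. Of 12 immunoglobulin constant region genes, 3 were measured: Igha at 11.99 ± 0.06, Ighm at 11.69 ± 0.13 and Ighg3 at 10.07 ± 0.06. Constant regions share sequence and lie side by side, and whether these probe sets tell the isotypes apart was not tested.

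Receptors for survival and T cell help were strong. Tnfrsf13c, the BAFF receptor, had levels of 12.73, 12.84 and 12.67. Cd40, which receives T cell help, had 11.48, 11.41 and 11.54, and Ltb, a ligand that shapes follicles, had 11.46 ± 0.15. The list of TNF family receptors and ligands had 13 of 16 members above the ceiling (81.3%) and 8 above 7.85, against 61.9% and 40.4% of all genes. Its lowest members were the receptor Tnfrsf1a at 6.31 and the ligand Cd70 at 5.99. Tnfrsf21 had the widest spread of the list, 0.30.

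Among 20 cytokine receptor genes, 17 lay above the ceiling (85.0%, against 61.9% of all genes). Ifngr2, a chain of the interferon gamma receptor, had levels of 11.59, 11.61 and 11.61. Il4ra, the interleukin 4 receptor chain, had 11.65, 11.47 and 11.40, and Tgfbr2 had 11.31 ± 0.01. Il5ra, a receptor typical of B1 cells, had 9.73, 9.67 and 8.09, low in wild-type 3 by 1.58. Il9r had 9.65, 10.04 and 10.72, high in wild-type 3. Il2ra, an activation marker, had 6.93, 7.13 and 6.09. Il7r, a receptor of precursors, and Il13ra1 were below the ceiling, at 6.21 and 5.72.

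Genes of Toll-like receptors and their adaptors gave 13 of 15 above the ceiling (86.7%) and 11 above 7.85, against 61.9% and 40.4% of all genes. Unc93b1, which carries nucleic acid sensors to endosomes, had 12.01 ± 0.05. Tlr9, the sensor of CpG DNA, had levels of 11.72, 11.90 and 11.60, and Tlr7, the sensor of single-stranded RNA, had 10.05, 9.87 and 10.01. Tlr1 had 11.37, 11.02 and 10.94. Tlr3 had the widest spread, with 7.02, 6.80 and 7.56. Tlr13 and Tlr8 were below the ceiling in every array, with means of 5.86 and 5.33.

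The class II list had a median level of 12.41, with 12 of 12 members above both lines. It left out H2-Ea, the alpha chain of I-E, which had levels of 6.23, 13.51 and 13.91, lowest and under the ceiling in wild-type 1. H2-Eb1, the beta chain of I-E, had levels of 13.42, 13.27 and 13.26. H2-Eb2, its relative, had 11.92, 11.07 and 10.86, the widest spread of the list. Ciita, the coactivator that switches the class II genes on, had 11.60, 11.25 and 11.31. Ctss, the protease that trims the invariant chain, had 11.43 ± 0.12, and Rfx5, a subunit of the factor that binds class II promoters, was lowest at 9.69 ± 0.07. Wild-type 1 was the highest array in 9 of the 12 genes and wild-type 3 the lowest in 9. Over all genes above the ceiling these shares were 23.2% and 25.2%.

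Class II promoters share a set of short elements, among them the Y box, whose letters CTGATTGG hold a reversed CCAAT box that binds the factor NF-Y. The promoters below were picked for holding these letters. The first promoter that the RefSeq table (GRCm38.p6) lists for each gene was searched. Of 6 class II genes measured here with such a promoter, 4 held the letters on either strand between 250 bases before and 50 bases after the start, against 4.31% of all 27025 promoters of that length. The 130 bases before the start are printed 5′ to 3′ on the gene's own strand, with the Y box in capitals. They lie at chr17:34287824-34287953 on the minus strand for H2-Aa, and on the plus strand at chr17:34305737-34305866 for H2-Eb1, chr17:34325545-34325674 for H2-Eb2 and chr17:34092249-34092378 for H2-Oa.
H2-Aa: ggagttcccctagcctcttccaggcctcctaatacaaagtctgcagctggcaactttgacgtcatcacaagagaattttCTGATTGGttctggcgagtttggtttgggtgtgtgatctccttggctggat
H2-Eb1: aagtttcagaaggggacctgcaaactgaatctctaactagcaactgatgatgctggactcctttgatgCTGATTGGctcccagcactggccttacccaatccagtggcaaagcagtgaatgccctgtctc
H2-Eb2: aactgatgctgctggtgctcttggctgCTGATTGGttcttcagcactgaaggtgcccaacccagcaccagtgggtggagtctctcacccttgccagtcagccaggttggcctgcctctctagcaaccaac
H2-Oa: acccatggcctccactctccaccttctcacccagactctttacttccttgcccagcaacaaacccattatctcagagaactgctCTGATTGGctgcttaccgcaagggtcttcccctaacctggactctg

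The Y box began 51 bases before the start in H2-Aa, 62 in H2-Eb1, 103 in H2-Eb2 and 46 in H2-Oa, in the same orientation in all 4. H2-Oa, the alpha chain of the class II modulator H2-O, had levels of 11.82, 11.37 and 11.31, the same order of arrays as H2-Aa, H2-Eb1 and H2-Eb2. H2-Ob and H2-DMa had no match in their windows. They had levels of 13.15, 12.93 and 12.49, and of 12.19, 11.83 and 11.99, so wild-type 1 was highest there too. A match is a description of these letters and not a tested site.

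Over the whole profile, the GC box GGGCGG stood in 62.9% of 9826 promoters of genes above the ceiling and in 27.8% of 5787 promoters of genes below it. For the ETS letters CCGGAAGT these shares were 8.01% and 1.47%, and for the TATA letters TATAAA 7.27% and 20.3%. The median GC content was 60.7% above and 50% below, and the shares were not adjusted for base composition. The octamer ATGCAAAT, known from immunoglobulin promoters, stood in 1.36% and 2.32%. Among the 149 promoters found for the 200 strongest genes, the shares were 57.7% for the GC box, 4.7% for the ETS letters, 18.1% for the TATA letters and 2.01% for the octamer, against 35.9%, 4%, 14.2% and 1.75% of all promoters.

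Metabolic genes gave broad signal. In glycolysis, 18 of 21 genes lay above the ceiling (85.7%) and 12 above 7.85, against 61.9% and 40.4% of all genes. Hk1, a hexokinase, the enzyme that starts glycolysis, had levels of 13.23, 13.18 and 13.21 by 1 probe set and 8.86, 8.65 and 9.03 by another, so its place among the strong genes rests on the first. Hk3, another hexokinase, lay below the ceiling at 6.58. Aldoa, an aldolase, had 11.65 ± 0.09, Ldha, a lactate dehydrogenase chain, had 11.09 ± 0.14, and Pfkl, the liver type phosphofructokinase, had 8.95 ± 0.08. Ldhb, the other main lactate dehydrogenase chain, and Eno2, the neuronal enolase, were lowest at 5.92 and 6.12. Slc2a3, a glucose transporter, had the widest spread, with levels of 9.47, 9.39 and 9.90. All 7 genes of the pentose phosphate pathway lay between 8.47 for H6pd and 9.87 for Rpe.

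All 19 genes of the TCA cycle lay above both lines, with a median of 9.68. Idh3g, an isocitrate dehydrogenase subunit, had 11.70 ± 0.05 and Cs, citrate synthase, had 10.83 ± 0.03. Pdhb, a pyruvate dehydrogenase subunit, was lowest at 8.07 ± 0.06. All 24 genes of the respiratory chain lay above the ceiling and 23 above 7.85. Atp5d and Atp5b, subunits of the ATP synthase, had 12.71 ± 0.13 and 12.10 ± 0.09, and Ndufa1, a subunit of complex I, was lowest at 7.67 ± 0.19. Cycs, cytochrome c, had levels of 11.07, 10.68 and 11.13.

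In fatty acid and sterol metabolism all 19 genes lay above the ceiling and 18 above 7.85. Scd1, the desaturase that makes oleate, had levels of 13.07, 13.17 and 13.19, and the median of the list was 9.40. Abca1, a cholesterol exporter, had 10.58, 11.06 and 11.13, and Srebf2, the regulator of sterol synthesis, had 10.86 ± 0.08. Sqle, a sterol synthesis enzyme, was lowest at 7.65 ± 0.31. Cpt1a, which loads fatty acids onto carnitine for the mitochondrion, had 9.88, 11.04 and 10.94, low in wild-type 1 by 1.06. Slc25a20, which carries acylcarnitine across the inner membrane and was picked after its values were seen, had 8.11, 9.23 and 9.01, low in the same array. In amino acid metabolism 15 of 16 genes lay above the ceiling. Slc3a2, the heavy chain of amino acid exchangers, had 11.47 ± 0.07, Slc1a5, a glutamine transporter, had 11.07, 10.50 and 10.29, and Slc7a11, the cystine transporter, was lowest at 5.01.

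Cell cycle genes lay near the median of all genes and quiescence genes above it. Of 26 proliferation genes, 21 lay above the ceiling (80.8%) but 10 above 7.85, against 61.9% and 40.4% of all genes. Their median of 7.43 was near the 7.21 of all genes. Pcna, the clamp of DNA polymerase, which also serves DNA repair, had 11.57, 11.91 and 11.51, and Rrm1 and Mcm5 had 9.57 ± 0.12 and 9.35 ± 0.08. Another probe set of Pcna had 11.28, 11.33 and 11.63, a different order of the arrays. Mki67, the Ki-67 antigen of cycling cells, had levels of 7.83, 6.98 and 7.23, highest in wild-type 1. Bub1 and Ccne2, genes of the spindle checkpoint and of S phase entry, were lowest at 5.79 and 6.15. All 17 quiescence genes lay above the ceiling, with a median of 10.21. Btg1, an antiproliferative factor, had levels of 12.89, 12.94 and 12.84, Txnip, which restrains glucose uptake, had 12.19, 12.61 and 12.21, and Klf2, a factor of resting lymphocytes, had 10.40, 10.53 and 10.36. Cdkn2c, a cell cycle inhibitor, was lowest at 7.43 ± 0.20.

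Of the BCL2 family, all 14 genes lay above the ceiling and 8 above 7.85, against 61.9% and 40.4% of all genes. Mcl1 and Bcl2, which protect from cell death, had 12.39 ± 0.07 and 11.27 ± 0.05. Bcl2l2, another protector, and Bbc3, the death promoter PUMA, were lowest at 7.05 and 6.91. Bmf, a death promoter, had 9.36 ± 0.34, the widest spread of the family (0.68), with wild-type 3 highest.

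Immediate early genes rise within minutes of stimulation or handling of cells. Of 22, 20 lay above the ceiling (90.9%, against 61.9% of all genes), with a median of 9.57. Fosb had levels of 9.86, 10.64 and 9.10, Jun had 10.45, 10.95 and 9.89, Fos had 8.49, 9.23 and 8.32, and Egr1 had 8.75, 9.02 and 9.06. Wild-type 2 was the highest array in 16 of the 22, against 31.4% of all genes above the ceiling. Zfp36, which destabilises cytokine RNA, was the strongest at 11.12 ± 0.06. The chaperone list had 12 of 13 above the ceiling (92.3%, against 61.9% of all genes). Hspa8, the constitutive chaperone, had 13.05, 13.10 and 12.85, while Hspa1a, the inducible one, had 7.59, 7.69 and 7.52. Another probe set of Hspa8 had 13.48, 12.02 and 11.74, a different pattern over the arrays. By the probe set used for each gene, Hsph1 had the widest spread of the chaperones, with 9.40, 9.29 and 8.87. The 17 type I interferon genes had a median of 8.27. Stat2, a signal carrier of the interferon receptor, had 9.97 ± 0.04, and Ifit1, an induced antiviral gene, had 6.95, 6.92 and 7.20. Rsad2, the antiviral gene viperin, had the widest spread, with 7.57, 8.08 and 8.33.

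The lists of other lineages had medians from 5.77 for NK cells to 7.37 for platelets, against 7.21 for all genes. Each count below stands against 61.9% of all genes above the ceiling and 40.4% above 7.85; the dendritic cell (75.0%) and platelet (77.8%) lists were over the first share, the myeloid list (61.1%) was near it, and the others were under it. Of 15 T cell genes, 8 lay above the ceiling, and above 7.85 only Cd2 did, which mouse B cells carry too, at 11.52 ± 0.02. Cd3e and Cd3g, chains of the T cell receptor complex, had levels of 7.50, 7.85 and 7.57 and of 6.19, 7.06 and 6.89. Cd3d was at 5.64 and Trat1, an adaptor of T cells, at 4.19. Wild-type 1 was the lowest array in 12 of the 15 T cell genes, and also in 10 of the 18 genes of liver, muscle, neurons and skin. Over all genes above the ceiling that share was 35.2%. Only 8 of these 15 and 8 of these 18 genes lay above it, and no share was computed for genes below it. The summed intensity of the T cell list was 4229, 4574 and 4442 in the 3 arrays. Of 13 NK cell genes, 4 lay above the ceiling and 1 above 7.85, the chemokine gene Ccl5 at 8.52 ± 0.04. Prf1 and Fcgr3 were the next highest and also above the ceiling, while the receptor gene Ncr1 was at 5.46. The list's summed intensity ran from 1191 to 1286.

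The myeloid list gave 11 of 18 above the ceiling and 4 above 7.85. Cybb, the oxidase subunit that B cells share with phagocytes, had 12.62 ± 0.10, and Cd68 and C1qb, macrophage genes, had 8.84 ± 0.24 and 7.89 ± 0.34. Csf1r, the receptor that macrophages depend on, had 6.89, 6.81 and 6.99, and C1qa had 6.83, 6.87 and 6.88, both just above the ceiling. Hmox1, which degrades haem, had 8.07, 7.20 and 8.31. The summed intensity of the list was 8924, 8128 and 9396. Wild-type 3 was the highest array in 13 of its 18 genes, against 45.4% of all genes above the ceiling. The part of these cells in other results was not tested.

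Of 14 neutrophil genes, 3 lay above the ceiling and 0 above 7.85. The 3 were S100a9 at 7.09, Camp and Elane, while S100a8 was at 5.70. Of 12 dendritic cell genes, 9 lay above the ceiling and 2 above 7.85, which were Bst2 at 8.27 and Cox6a2. Zbtb46, a factor of conventional dendritic cells, was at 7.17 and Siglech, a receptor of plasmacytoid cells, at 6.80. Of 9 platelet genes, 7 lay above the ceiling and 2 above 7.85. The 2 were Itgb3, an integrin chain, with levels of 9.37, 8.61 and 9.28, and Ppbp, and Treml1 was the next highest. Pf4 and Itga2b were at 6.17 and 7.48. Of 13 stromal genes, 6 lay above the ceiling and 2 above 7.85, led by Pecam1 at 11.26 ± 0.15, which B cells express; Cdh5, a junction protein of endothelium, was at 6.86 and Col1a1, a collagen chain, at 8.02 ± 0.08.

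Among the lists of other lineages, the erythroid list had the widest spread between arrays. Alas2, the haem synthesis enzyme of red cells, had levels of 8.21, 8.58 and 9.69, high in wild-type 3 by 1.12. Car2, a carbonic anhydrase, had 9.54, 9.59 and 10.11, and Slc4a1, the band 3 protein, had 8.05 ± 0.26. These 3 were highest in wild-type 3, as were 4 of the 10 members in all, while 5 were highest in wild-type 2, and the median of the list was 6.66, 6.89 and 6.65 in the 3 arrays. The list gave 5 of 10 genes above the ceiling and 4 above 7.85, and its summed intensity was 2090, 2392 and 3094. Klf1, a transcription factor of erythroid cells, was below the ceiling in every array, with a mean of 6.32, and the adult globin genes Hbb-b1 and Hba-a1 were not analysed here.

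**Figure D3:**
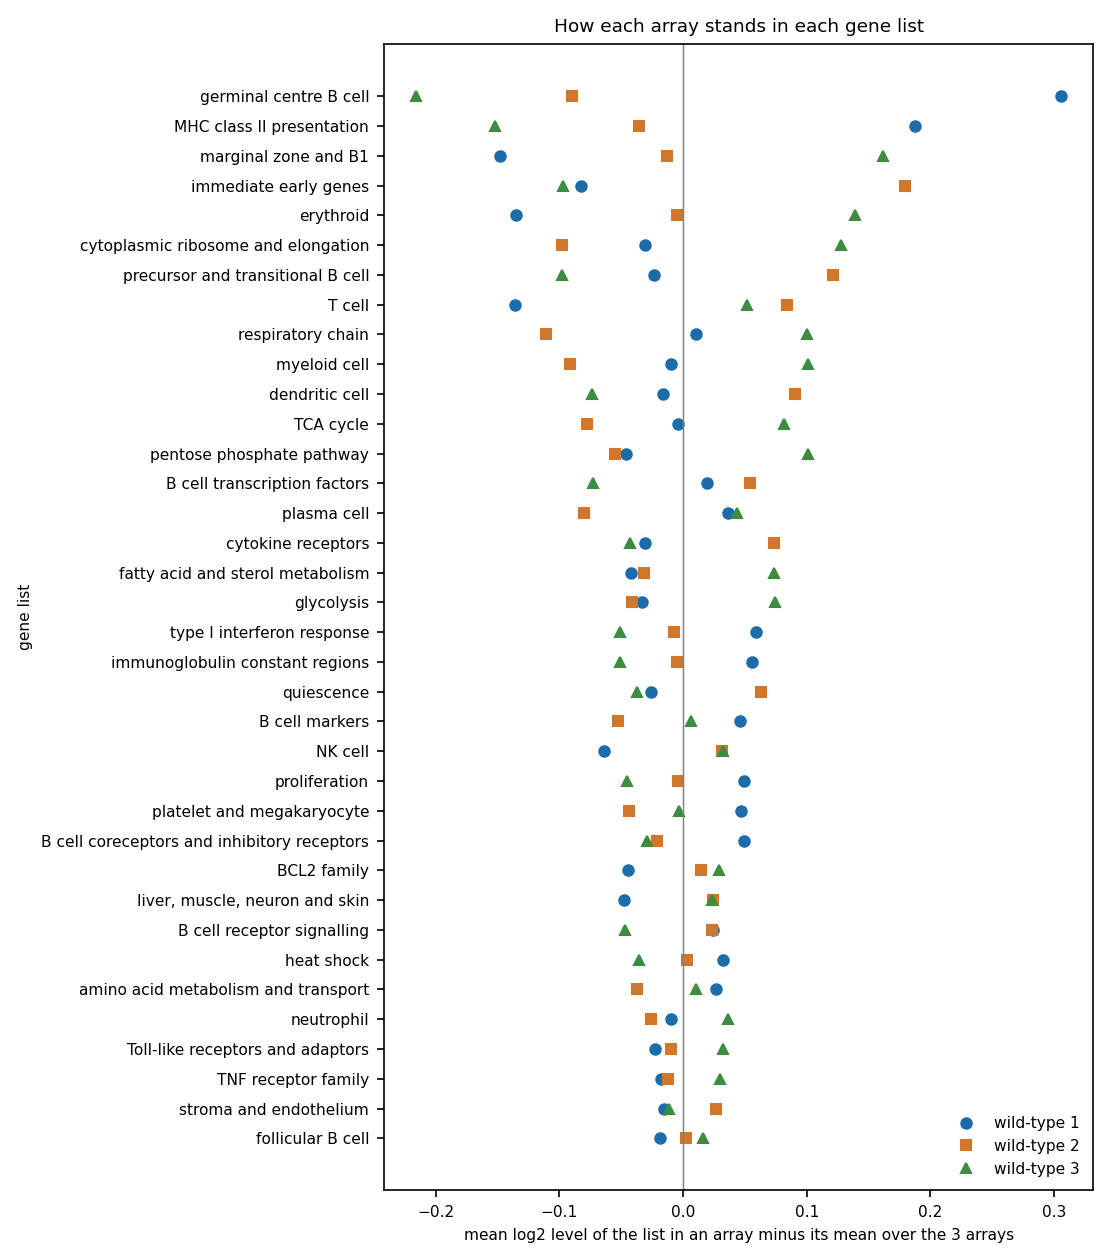
Mean log2 level of each gene list in wild-type 1 (blue circles), 2 (orange squares) and 3 (green triangles), minus the list's mean over the 3 arrays (x axis), for 36 lists (y axis) ordered by spread. The germinal centre list runs from -0.22 to 0.31 and the follicular list from -0.02 to 0.02.

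The plot of list means by array shows how little most programmes differed among the 3 arrays and which ones did. The germinal centre list had the widest spread: 0.31 above its mean in wild-type 1, then -0.09 and -0.22. Rgs13 and Mybl1, the 2 of its 11 members with a spread over 2-fold, weigh heavily in this mean. Of the 11, 9 were highest in wild-type 1. The class II list, which leaves out H2-Ea, stood at 0.19, -0.04 and -0.15. The marginal zone and B1 list ran the other way, at -0.15, -0.01 and 0.16. The ribosome list stood at -0.03, -0.10 and 0.13, and the respiratory chain list at 0.01, -0.11 and 0.10. In both of these, wild-type 3 was the highest array in 21 of 24 genes and wild-type 2 the lowest in 21 of 24, whereas over all genes above the ceiling wild-type 3 was highest in 45.4% and wild-type 2 lowest in 39.6%. The B cell receptor signalling list stayed within 0.05 of its mean in every array. These shifts are values of 3 arrays and were not tested.

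Genes varied little among the arrays as a whole. Over the 12336 genes above the ceiling, the median SD was 0.083 and the median spread, the highest minus the lowest log2 level, was 0.158. The spread was under 1.5-fold in 11972 genes (97.0%) and over 2-fold in 98 (0.794%). It was over 4-fold in 17 genes and over 16-fold in 3. In 44 of the 98, the array farthest from the middle was more than 2-fold away from the nearer of the other 2. Over all 98, the array farthest from the middle was wild-type 1 in 27 genes, wild-type 2 in 36 and wild-type 3 in 35. No single array thus carried the wide genes. Over all genes above the ceiling these shares were 26.0%, 37.0% and 37.0%.

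**Figure D4:**
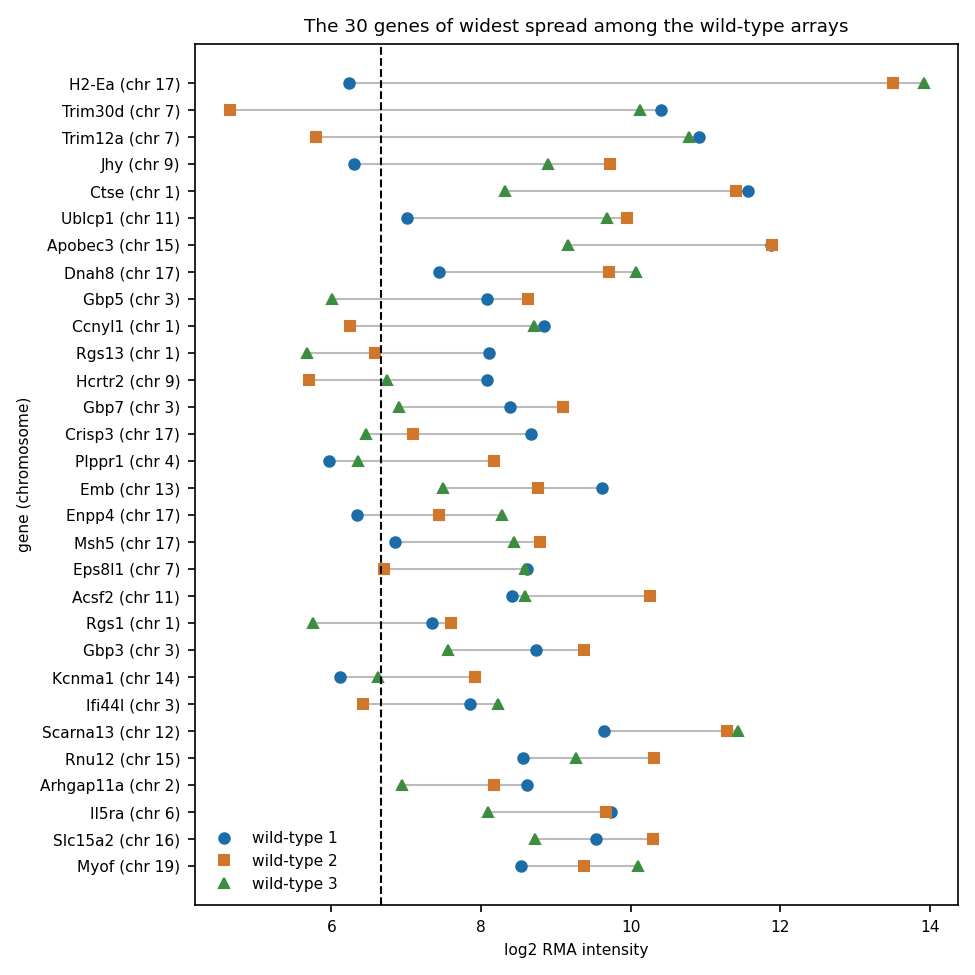
Log2 RMA intensity (x axis) of the 30 genes of widest spread among those above the ceiling (y axis, with chromosome), in wild-type 1 (blue circles), 2 (orange squares) and 3 (green triangles), joined by a grey line. The dashed line is the ceiling at 6.66; in H2-Ea, Trim30d and Trim12a 1 array lies below it and the other 2 above 10.

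The widest gene was H2-Ea, the alpha chain of the class II molecule I-E, with levels of 6.23 in wild-type 1, 13.51 in wild-type 2 and 13.91 in wild-type 3. Wild-type 1 was below the ceiling, and the other 2 arrays were at the level of the strongest class II genes. H2-Eb1, which pairs with it, was high in all 3. Of inbred strains, C57BL/6 is known to lack I-E because its H2-Ea promoter is deleted, and RefSeq lists the gene in that strain's genome as a transcribed pseudogene. CBA is known to express it. In the other 7 arrays H2-Ea lay between 6.09 and 6.63 in delta 1, floxed 1 and floxed 2, and between 13.59 and 13.65 in the remaining 4, so both states occurred in every group.

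Next came Trim30d, with levels of 10.40, 4.64 and 10.12, and Trim12a, with 10.92, 5.79 and 10.78. Both encode TRIM family proteins, lie close together on chromosome 7 and were at background in wild-type 2 alone. All 7 other arrays were near the high pair, between 8.91 and 10.16 for Trim30d and between 9.94 and 10.85 for Trim12a. Wild-type 2 was thus the sole array of the 10 in which these 2 genes were low.

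Ctse, the aspartic protease cathepsin E, had levels of 11.56, 11.41 and 8.32. Apobec3, a cytidine deaminase that restricts retroviruses, had 11.87, 11.88 and 9.16, and its other probe set had 11.22, 11.43 and 8.76. Both genes had 1 low array, wild-type 3. In the other 7 arrays Ctse lay between 8.11 and 9.01 in 4 and between 11.38 and 11.52 in 3, and Apobec3 between 9.20 and 9.50 in 3 and between 11.70 and 12.37 in 4. The arrays in the low state were not the same for both genes. Dnah8, a dynein chain, had 7.44, 9.71 and 10.07, and 2 of the other 7 arrays, delta 1 and floxed 1, were low with 7.29 and 6.84.

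**Figure D5:**
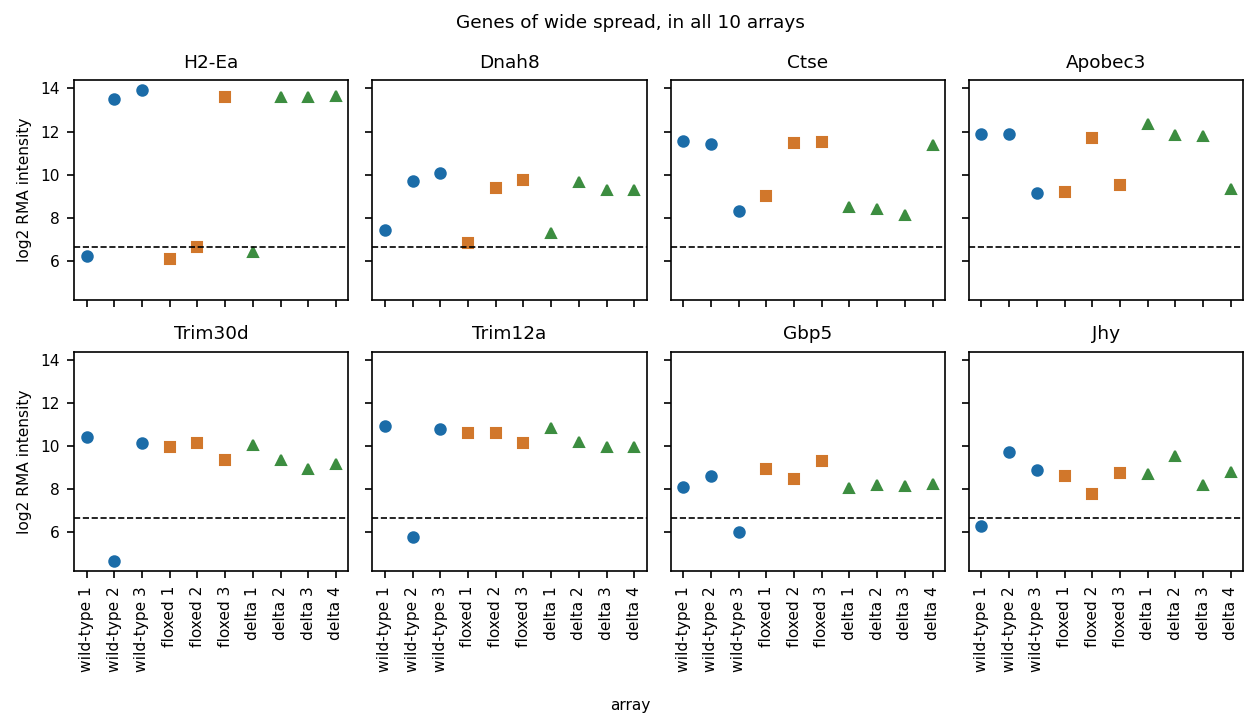
Log2 RMA intensity (y axis) of 8 genes of wide spread in each of the 10 arrays (x axis), wild-type in blue circles, floxed in orange squares and delta in green triangles; the dashed line is the ceiling at 6.66. H2-Ea, Dnah8, Ctse and Apobec3 take a high or a low state in each group, while Trim30d and Trim12a are low in wild-type 2 alone and Gbp5 and Jhy are lowest in 1 wild-type array.

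The guanylate-binding proteins, interferon-induced GTPases of cell defence, were low in wild-type 3 together. Gbp5 had levels of 8.07, 8.62 and 6.01, Gbp7 had 8.38, 9.10 and 6.90, and Gbp3 had 8.74, 9.38 and 7.56. In the other 7 arrays none of these 3 genes was as low as in wild-type 3. The type I interferon list did not share this step: its mean in wild-type 3 was 0.05 below its mean over the arrays. Ifi44l, another interferon-induced gene, was low in wild-type 2 instead, with 7.86, 6.42 and 8.22.

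Jhy had levels of 6.30, 9.72 and 8.90, and Ublcp1, a phosphatase of the proteasome, had a spread of 2.94 around a mean of 8.88, both low in wild-type 1. Ccnyl1, Eps8l1 and Hcrtr2 were lowest in wild-type 2, and Emb, Arhgap11a and Rgs1 in wild-type 3. Plppr1, Acsf2, Kcnma1, Rnu12 and Slc15a2 were highest in wild-type 2; the other probe set of Kcnma1 was below the ceiling and flat, at 5.08, 5.02 and 5.13. Crisp3 was highest in wild-type 1. Scarna13, Msh5 and Enpp4 were lowest there. The array farthest from the middle was wild-type 1 in 11 of the 30 widest genes, wild-type 2 in 9 and wild-type 3 in 10. In 18 of the 30, some of the other 7 arrays were nearer to the lone array and some nearer to the pair. Being nearer does not mean that the level recurred: for Jhy the array counted with the lone level of 6.30 was at 7.76. In 11, all 7 were nearer to the pair, and in 1 all were nearer to the lone array.

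Wide genes lay near each other along the chromosomes. Of the 98, 35 (35.7%) had another wide gene within 10 places in the RefSeq gene order of genes above the ceiling, whereas 12.7% of all 12326 genes with a position had one. In 29 of the 35 at least 1 such neighbour had the same array farthest from the middle, though not always on the same side. In wild-type 1, for example, H2-Eb2 was high and its neighbour H2-Ea low. Over all genes above the ceiling the farthest array was wild-type 1 in 26.0%, wild-type 2 in 37.0% and wild-type 3 in 37.0%. Unlinked neighbours would thus often share it, more so where a gene has several, and the count expected without a link was not computed. Gbp5, Gbp7, Gbp3 and Kyat3 stood next to each other on chromosome 3, all low in wild-type 3. On the same chromosome Mcoln3, Mcoln2 and Ifi44l were all low in wild-type 2. All 8 wide genes of chromosome 7 had wild-type 2 as the array farthest from the middle, against 37.0% of all genes above the ceiling. Of the 12 of chromosome 17, 8 had wild-type 1, against 26.0%, among them H2-Ea, H2-Eb2, Dnah8 and Glo1. On both chromosomes some of these genes were high in that array and others low. The wide genes of chromosome 1 split 3, 4 and 3 over the arrays, and those of chromosome 11 split 3, 3 and 3. Apobec3 and Cbx7 on chromosome 15 were low in wild-type 3 together, and Pttg1 and Ublcp1 on chromosome 11 and Jhy and Ubash3b on chromosome 9 were low in wild-type 1. Genes of 1 family can share probe sequence, which leaves neighbours such as Gbp5 and Gbp7 less than independent. The genotypes of the 3 samples at these loci were not analysed here, and whether inherited alleles of the mixed strain, or differences between alleles in probe matching, take part in these steps was not tested.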

How the data were processed

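Gene expression was read from 10 arrays, and the 3 titled wild-type were described. The deposited values are RMA intensity on a linear scale, made by the authors, per the submitters' processing notes; the software, its version and the build of the probe annotation: not given in the sources used here. Log2 of each intensity was taken with Python 3.11.15, pandas 2.3.3 and numpy 2.4.6. Probe sets with exactly 1 symbol in the platform annotation were kept (1321 had several symbols and 11799 none), and 954 genes with several probe sets were represented by the one of highest mean over the 3 arrays. RefSeq held 21553 of the 21640 Entrez identifiers. The background ceiling, spread, neighbour window of 10 genes and motif search on both strands are defined where they first appear. The script that finds the array farthest from the middle was tested on simulated data, which says nothing of whether real arrays differ. The number of arrays limits the precision, and no statistical test applies to 1 group.

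The arrays and gene lists were chosen with earlier results of these data known. Genes to name were drawn from the 6 markers, the 30 of highest signal and the 30 of widest spread (predicted genes left out). They were also drawn from the 3 highest, 2 lowest, widest and defining members of each list. Not all of these are named in the text, so the named members do not stand for a whole list. Mybl1, Ptprc, Il2ra, Il9r, Ciita, Ctss, H2-Eb1, H2-Oa, H2-Ob, H2-DMa, Hk3, Slc4a1, Slc25a20, Cbx7, Glo1, Kyat3, Mcoln2, Mcoln3, Pttg1 and Ubash3b were named after their values were seen. Alternatives covered the probe set per gene, normalization, centring, the ceiling, the median in place of the mean and leaving out each array; ceilings from Y-linked genes and from the tissue list, and the values in the other 7 arrays, were added after seeing the data.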

Additional observations from a re-analysis of the deposited data

How the results depend on the processing

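No paired analysis was possible because the results come from no test and 1 group. At least 28 of the 30 genes of highest signal were shared under each alternative run, and the 88 values of named levels moved by no more than the SD over the arrays. Leaving out 1 array changed what rests on spread, as 2 arrays always span less than 3: the count of genes over 2-fold fell from 98 to between 41 and 59, the median spread from 0.158 to between 0.089 and 0.110, and 18 to 19 of the 30 widest genes were shared. The median level over all list members, 9.01, ranged from 8.96 to 9.02, and was 9.17 with every probe set on its own. With the ceiling from the tissue list, 8048 genes lay above it in place of 12336. Single genes turned on 1 array: without wild-type 1 the spread of H2-Ea was 0.40, without wild-type 2 that of Trim30d was 0.28 and of Trim12a 0.13, and without wild-type 3 that of Ctse was 0.15, of Apobec3 0.01 and of Gbp5 0.55. Of 456 list counts under alternatives, 40 moved by over 1.5 times, and of 304 list medians 9 moved by more than the SD of the list's median over the arrays. Levels near 6.66 have no sure side, since RMA gives no detection call.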
